A study of Capra hircus with 20 samples.

Results

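The enzymes that turn citrate into fatty acids and fatty acids into triglyceride were followed in cultured goat cells from muscle and subcutaneous fat, before and after induction with oleic acid. The members were 10 genes named by their role (ACLY, ACACA, FASN, SCD, ELOVL6, ME1, DGAT1, DGAT2, AGPAT2 and LPIN1), and all 10 were present in the mRNA table by their official symbol. They held 26 of its 43766 transcripts and 10 of its 20587 gene symbols, and the transcripts of a symbol were summed in each library.

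The cells came from male Jianzhou Daer goats aged 7 days, and the study names 5 animals. Intramuscular preadipocytes (IMPA) were isolated from the longissimus dorsi muscle and subcutaneous preadipocytes (SPA) from subcutaneous fat, and both were grown in DMEM/F12 with fetal bovine serum and used at an early passage. Cells taken after 3 days in the same medium with oleic acid were called intramuscular adipocytes (IMA) and subcutaneous adipocytes (SA), and those taken at day 0 were the preadipocytes. Each of the 4 groups had 5 libraries, 20 in all, of strand-specific RNA. The sources used here do not say which goat gave which library, so p values measure the spread between these libraries. All groups were cultured cells and none was freshly isolated fat.

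De novo lipogenesis starts in the cytosol, where ATP citrate lyase (ACLY) splits citrate to acetyl-CoA and acetyl-CoA carboxylase (ACACA) carboxylates it to malonyl-CoA. Fatty acid synthase (FASN) joins these units to palmitate with NADPH, part of which comes from malic enzyme (ME1). ELOVL6 lengthens palmitate to stearate, and stearoyl-CoA desaturase (SCD) places the double bond that makes oleate, the fatty acid that was also the inducer here. AGPAT2, LPIN1 and DGAT1 or DGAT2 then act in turn on the glycerol backbone to give phosphatidate, diacylglycerol and triglyceride. In ruminants acetate is a main source of acetyl-CoA for fat synthesis, and the expression of most of these enzymes is known to rise as preadipocytes become fat cells.

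Values are FPKM (fragments scaled to transcript length and to the mapped reads of the library), which are per length and so allow levels to be set side by side between genes. The FPKM sum of a library was 527426 to 596669, of which one newly assembled long non-coding RNA took 19.95 to 29.07%, and 15126 to 16961 genes of the mRNA table were above 0. The tables used here hold no counts, and the depth behind a value is unknown. The share of reads that mapped, tabulated by the study, was lower after induction and differed between the cell types, and its part in the values was not tested.

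The study itself reports lipid droplets by Oil Red O staining after 3 days and Pref-1 mRNA below that of preadipocytes. The labelled cell types were checked here against marker lists. DLK1, the gene of Pref-1, was too low to be tested, with means of 0.0114 FPKM in IMPA, 0.0316 in IMA, 0.145 in SPA and 0.157 in SA. Of 11 adipocyte markers, 8 had a mean under 1 FPKM in IMPA, 9 in IMA, 8 in SPA and 6 in SA, and the list summed to 15.02 to 16.7 FPKM in IMPA, 10.5 to 12.2 in IMA, 14.1 to 15.4 in SPA and 13.2 to 15.3 in SA. The fat cell transcription factor gene CEBPA fell in both cell types, from 9.23 to 5.42 FPKM in intramuscular cells (log2 change -0.68, adjusted p = 4.3e-06, limma) and from 5.05 to 3.91 FPKM in subcutaneous cells (-0.31, adjusted p = 0.0079, limma). It was 1 of 3 adipocyte markers tested, beside 40.2% and 26% of all genes lower. Of the other 2, PNPLA2 was not called in either cell type and CIDEC was not called in subcutaneous cells (adjusted p = 0.327 to 0.601, limma). CIDEC had means of 0.333 FPKM in IMPA, 0.318 in IMA, 4.65 in SPA and 4.35 in SA. It thus reached a mean of 1 FPKM over the 20 libraries only through the subcutaneous ones. Its values in intramuscular cells are too low for the test there to show whether it changed. PPARG was not tested and had means of 0.475 FPKM in IMPA, 0.364 in IMA, 0.624 in SPA and 1.03 in SA. LPL, which encodes lipoprotein lipase, had a mean under 1 FPKM over the 20 libraries and was not tested. It was at 0.481 to 0.576 FPKM in SPA and 1.03 to 1.61 FPKM in SA, with means of 1.02 FPKM in IMPA and 0.941 in IMA. The markers CFD and LIPE, not tested either, had lower means in SA than in SPA (0.111 against 0.237 and 0.336 against 0.384 FPKM). The adipokine genes ADIPOQ and LEP and the lipid droplet gene PLIN1 were among those near 0 in all groups. Fibroblast and preadipocyte markers summed to 4442 to 6986 FPKM in IMPA, 5927 to 6663 in IMA, 11197 to 11588 in SPA and 10238 to 10544 in SA. Such sums mostly follow the most abundant genes of the list. Of the 7 tested, none rose and 2 fell in intramuscular cells (all genes 19.9% and 40.2%). In subcutaneous cells 1 rose and 5 fell (all genes 26.1% and 26%). Endothelial markers summed to at most 1.19 FPKM and immune markers to at most 2.97 FPKM.

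Markers of other states moved with the groups. The 9 skeletal muscle markers summed to 3299 to 3792 FPKM in IMPA and 11776 to 12534 FPKM in IMA, against 6.51 to 22.8 FPKM in SPA and 7.39 to 9.19 FPKM in SA. From IMPA to IMA 8 of the 9 rose and 1 fell, beside 19.9% and 40.2% of all genes. The 7 proliferation markers summed to 45.1 to 52.1 FPKM in SPA and 242 to 272 FPKM in SA, where all 7 rose, beside 26.1% of all genes. In the intramuscular cells they summed to 117 to 147 FPKM before and 108 to 133 FPKM after induction. There 3 of 7 fell, which is near the 40.2% of all genes that were lower. Their part in the enzyme results below was not tested. In bulk RNA a lower level of a gene in all cells and fewer cells that express it cannot be told apart.

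The enzymes differed widely in level. ACLY was the most abundant member in both intramuscular groups, with 42.6 ± 2.68 FPKM in IMPA and 31.5 ± 1.61 FPKM in IMA (mean ± SD, n = 5 here and below). ME1 was the most abundant in both subcutaneous groups, with 37.3 ± 0.958 FPKM in SPA and 33.3 ± 1.20 FPKM in SA. Both stood above 75.9% or more of all genes in every group. DGAT2 was the lowest member in every group, with means of 0.202 to 0.588 FPKM, and LPIN1 the next lowest, with 1.84 to 2.00 FPKM. The remaining members had group means between 2.44 and 9.55 FPKM.

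**Figure D1:**
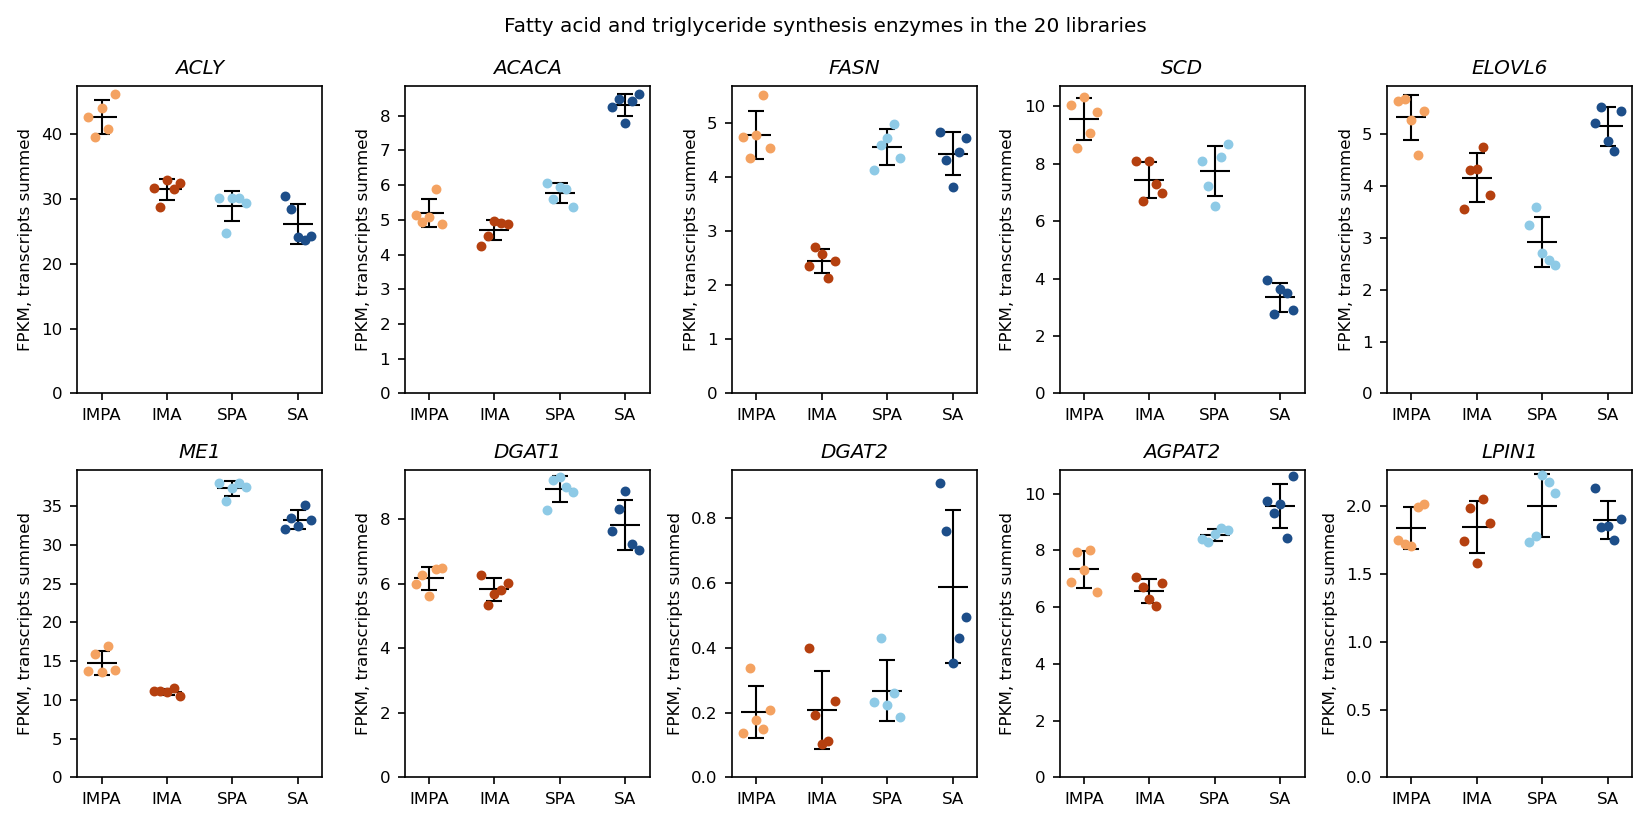
FPKM of each of the 10 enzymes (transcripts summed, y axis from 0, scale differs between panels) in the 5 libraries of IMPA, IMA, SPA and SA; points are libraries and black bars the mean ± SD. FASN was low in IMA, SCD was low in SA, ME1 was high in both subcutaneous groups, and DGAT2 stayed under 1 FPKM in all libraries.

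The first comparison asked which enzymes changed when intramuscular cells were induced. Of the 9 members whose mean over the 20 libraries reached 1 FPKM, 5 fell, none rose and 4 were not called (limma on log2(FPKM + 1), adjusted p under 0.05 by the Benjamini-Hochberg method over 11432 genes). Calls were common in this comparison, with 60.1% of all genes called, 19.9% higher and 40.2% lower, so the number of members called is near that of genes in general. The median change of the 9 members was -0.30 on the log2 scale, against -0.09 for all genes tested. Log2 changes are on the log2(FPKM + 1) scale, which understates the change of low genes.

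FASN, the enzyme that builds palmitate, fell furthest. It was at 4.73, 4.34, 4.78, 5.51 and 4.52 FPKM in IMPA 1 to 5 and at 2.36, 2.71, 2.57, 2.13 and 2.45 FPKM in IMA 1 to 5. Every IMA library was below every IMPA library. The mean fell by 48.8%, and the log2 change was -0.75 (SE 0.064, adjusted p = 1.8e-06, limma).

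ACLY, which supplies the acetyl-CoA, was at 42.7, 39.5, 44.1, 40.7 and 46.3 FPKM in IMPA and at 31.8, 28.8, 32.9, 31.5 and 32.5 FPKM in IMA. The groups did not overlap, and the mean fell by 26.2% (log2 change -0.43, SE 0.050, adjusted p = 2.0e-05, limma). ME1, the NADPH-yielding malic enzyme, was at 13.7, 15.9, 13.6, 17.0 and 13.9 FPKM in IMPA and at 11.1, 11.1, 11.1, 11.5 and 10.5 FPKM in IMA. It too was lower in every induced library, and its mean fell by 25.4% (log2 change -0.39, SE 0.062, adjusted p = 2.1e-04, limma).

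SCD, the desaturase that makes oleate, was at 10.0, 8.54, 10.3, 9.06 and 9.78 FPKM in IMPA and at 8.08, 6.71, 8.08, 7.31 and 6.99 FPKM in IMA. The lowest IMPA library lay just above the highest IMA library, and the mean fell by 22.1% (log2 change -0.32, SE 0.064, adjusted p = 9.7e-04, limma). ELOVL6, which makes stearate from palmitate, was at 5.64, 5.68, 5.27, 4.61 and 5.46 FPKM in IMPA and at 3.56, 4.31, 4.34, 4.76 and 3.84 FPKM in IMA. Here the groups overlapped, since IMA 4 was above IMPA 4, while the mean fell by 21.9% (log2 change -0.30, SE 0.071, adjusted p = 0.0036, limma). Among all genes tested, 43.5% had groups that did not overlap, against 4 of the 9 members.

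The other tested enzymes did not pass the test in the intramuscular cells. ACACA, the carboxylase that commits acetyl-CoA to fatty acid synthesis, had 5.19 ± 0.403 FPKM in IMPA and 4.71 ± 0.301 FPKM in IMA, a log2 difference of -0.12 with a 95% interval of -0.24 to 0.0078 (adjusted p = 0.0961, limma). For AGPAT2, the acyltransferase that makes phosphatidate, the means were 7.33 ± 0.657 and 6.58 ± 0.419 FPKM, with a log2 difference of -0.13 and an interval of -0.27 to 5.1e-04 (adjusted p = 0.0786, limma). DGAT1, which adds the last acyl chain of triglyceride, and LPIN1, the phosphatidate phosphatase, had log2 differences of -0.07 (-0.18 to 0.042) and 0.0043 (-0.13 to 0.14). ACACA was called in an ordinary linear model with a library-size covariate (-0.16, adjusted p = 0.0084), and with all 4 groups in 1 fit ACACA and AGPAT2 were called (adjusted p = 0.0485 and 0.0476, limma). Without IMPA 5 AGPAT2 was called as well (adjusted p = 0.0305, limma).

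The same question in subcutaneous cells gave both directions. Of the 9 tested members 3 rose, 3 fell and 3 were not called, against 52.1% of all genes called, 26.1% higher and 26% lower. The members' median log2 change was -0.05, beside -0.01 for all genes.

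ELOVL6 and ACACA were the 2 enzymes with a clear rise. ELOVL6 was at 3.24, 3.60, 2.72, 2.57 and 2.49 FPKM in SPA 1 to 5 and at 5.23, 5.53, 4.86, 4.68 and 5.46 FPKM in SA 1 to 5. All SA libraries were above all SPA libraries, the mean was 76.2% higher, and the log2 change was 0.65 (SE 0.080, adjusted p = 2.6e-05, limma). ACACA was at 6.07, 5.58, 5.94, 5.88 and 5.37 FPKM in SPA and at 8.24, 8.48, 7.80, 8.42 and 8.63 FPKM in SA. These groups did not overlap either, with a mean 44.1% higher (log2 change 0.46, SE 0.046, adjusted p = 4.3e-06, limma).

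SCD went the other way and showed the largest log2 change of any tested member in either cell type. It was at 8.08, 7.21, 6.51, 8.23 and 8.68 FPKM in SPA and at 3.96, 2.76, 3.62, 3.50 and 2.90 FPKM in SA. The highest SA library was well under the lowest SPA library. The mean fell by 56.7%, to a log2 change of -1.01 (SE 0.090, adjusted p = 1.6e-06, limma). ME1 also fell, though by less, from 38.0, 35.7, 37.4, 38.0 and 37.5 FPKM in SPA to 32.0, 33.5, 32.5, 35.1 and 33.3 FPKM in SA. The groups lay close together without overlap, and the mean fell by 10.8% (log2 change -0.16, SE 0.033, adjusted p = 0.0015, limma). Non-overlapping groups were found for 38.8% of all genes and for 4 of the 9 members.

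The calls of DGAT1 and AGPAT2 were near the threshold. DGAT1 was at 8.29, 9.19, 9.31, 8.99 and 8.82 FPKM in SPA and at 7.62, 8.32, 8.87, 7.23 and 7.04 FPKM in SA, with overlap (log2 change -0.17, SE 0.061, adjusted p = 0.0314, limma). AGPAT2 was at 8.39, 8.29, 8.57, 8.78 and 8.71 FPKM in SPA and at 9.74, 9.33, 9.62, 8.45 and 10.6 FPKM in SA, where SA 4 lay within the SPA range (log2 change 0.14, SE 0.053, adjusted p = 0.0412, limma). The DGAT1 call was lost in 7 of the 10 fits that left out 1 library (SPA 2, 3, 4 or 5, or SA 1, 4 or 5) and the AGPAT2 call in 9 of 10 (all but SA 4), with adjusted p up to 0.0733 and 0.0908.

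FASN, the member that changed most in intramuscular cells, was at 4.12, 4.59, 4.72, 4.98 and 4.35 FPKM in SPA and at 4.83, 4.31, 3.81, 4.46 and 4.71 FPKM in SA. The groups overlapped, with SA 3 below every SPA library and SPA 4 above every SA library, and the log2 difference was -0.03 with a 95% interval of -0.17 to 0.10 (adjusted p = 0.674, limma). ACLY was at 30.2, 24.7, 30.1, 30.1 and 29.3 FPKM in SPA and at 30.5, 28.5, 24.1, 23.6 and 24.3 FPKM in SA (log2 difference -0.14, -0.31 to 0.031, adjusted p = 0.156, limma). SPA 2 stood apart from the other SPA libraries, and SA 1 and SA 2 from the other SA libraries. The ACLY difference passed the threshold without SPA 2 or without SA 1 (adjusted p = 0.0462 and 0.0406, limma). LPIN1 had 2.00 ± 0.229 FPKM in SPA and 1.90 ± 0.142 FPKM in SA, a log2 difference of -0.05 (-0.18 to 0.080).

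DGAT2, the second diacylglycerol acyltransferase, was too low for the test. It was at 0.138, 0.337, 0.176, 0.151 and 0.208 FPKM in IMPA and at 0.400, 0.193, 0.102, 0.112 and 0.234 FPKM in IMA, with no separation. In SPA it was at 0.234, 0.429, 0.223, 0.262 and 0.187 FPKM and in SA at 0.907, 0.760, 0.351, 0.429 and 0.494 FPKM. SA 1, 2 and 5 were above every SPA library, SA 4 was level with SPA 2, and SA 3 was below it. With the minimum mean lowered to 0.1 FPKM, 46.8% of 13809 genes were called between SA and SPA, and DGAT2 was among them with a log2 change of 0.32 (SE 0.092, adjusted p = 0.0148, limma). Between IMA and IMPA 55.7% were called, and DGAT2 was not (adjusted p = 0.964, limma). At such levels few fragments lie behind each value.

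**Figure D2:**
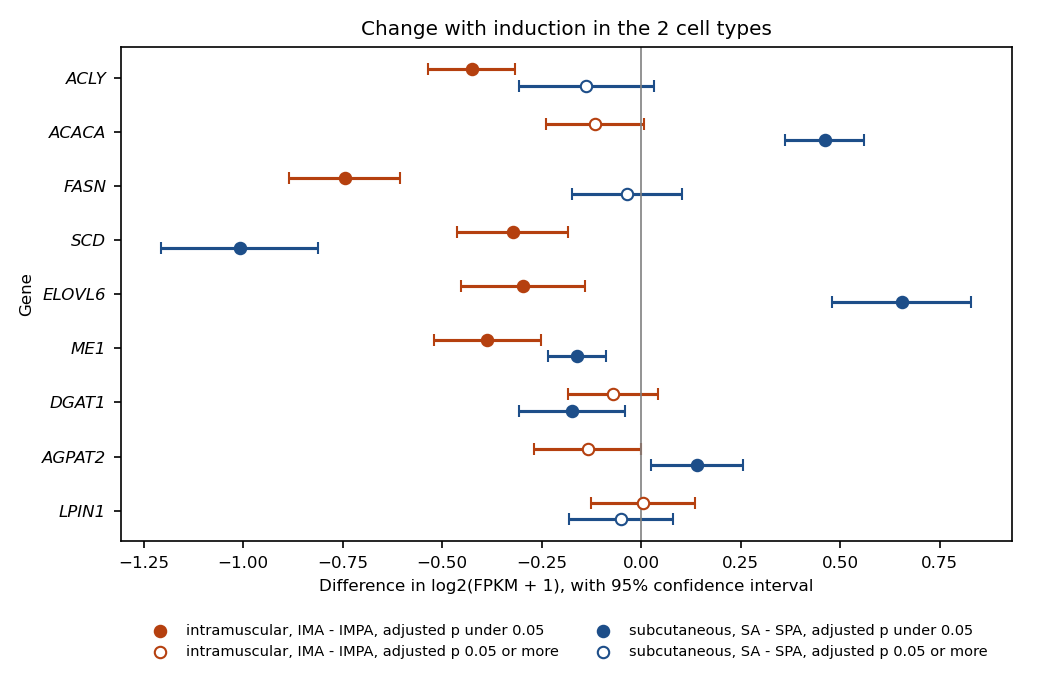
Difference in log2(FPKM + 1) between induced cells and preadipocytes for the 9 tested enzymes (x axis, with 95% confidence intervals from limma), in intramuscular (orange) and subcutaneous cells (blue); filled points have an adjusted p under 0.05. FASN changed by -0.75 in intramuscular and -0.03 in subcutaneous cells, and ELOVL6 by -0.30 and 0.65.

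The difference between these changes was tested directly as an interaction over the 20 libraries. It was called for 7 of the 9 members, 1 higher and 6 lower in the intramuscular than in the subcutaneous cells, against 55.3% of all genes, 20.7% higher and 34.6% lower. ELOVL6 had the largest difference, -0.95 (SE 0.11, adjusted p = 2.6e-07, limma), since it fell in one cell type and rose in the other. For FASN the difference was -0.71 (SE 0.090, adjusted p = 9.2e-07) and for ACACA -0.58 (SE 0.070, adjusted p = 5.4e-07), both in limma.

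SCD was the single member with a positive difference, 0.69 (SE 0.11, adjusted p = 2.9e-05, limma): it fell in both cell types and by more in the subcutaneous cells. The differences of ACLY (-0.29, adjusted p = 0.0155), AGPAT2 (-0.28, adjusted p = 0.0066) and ME1 (-0.23, adjusted p = 0.0108) were smaller in limma. Under quantile normalization the ME1 and AGPAT2 differences were -0.12 and -0.19 and were not called (adjusted p = 0.214 and 0.0594). For DGAT1 and LPIN1 the differences were 0.10 (95% interval -0.062 to 0.27) and 0.05 (-0.12 to 0.23).

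The cell types were next compared at each stage. At day 0, 3 members were higher and 4 lower in IMPA than in SPA, beside 75.1% of all genes called, 42.3% higher and 32.9% lower. At day 3, 2 were higher and 6 lower in IMA than in SA, beside 72.4% of all genes called, 29% higher and 43.4% lower. Groups did not overlap for 5 and 6 of the 9 members, beside 63.4% and 58.6% of all genes. Since most genes differed between the cell types, the sizes are of more use here than the counts.

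ME1 had the largest difference between cell types. Its 10 subcutaneous libraries lay between 32.0 and 38.0 FPKM and its 10 intramuscular libraries between 10.5 and 17.0 FPKM. The subcutaneous mean was 2.52 times the intramuscular one at day 0 and 3.01 times at day 3 (log2 differences -1.28, SE 0.059, adjusted p = 6.6e-10, and -1.51, SE 0.042, adjusted p = 2.8e-13, limma). DGAT1 and AGPAT2, both enzymes of glycerolipid assembly, were also lower in intramuscular cells at both stages. DGAT1 differed by -0.47 at day 0 and -0.37 at day 3 (adjusted p = 1.3e-06 and 1.5e-04, limma), and AGPAT2 by -0.20 and -0.48 (adjusted p = 0.0046 and 7.6e-06, limma).

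ACLY and SCD were higher in intramuscular cells at both stages. ACLY differed by 0.55 at day 0 (adjusted p = 3.3e-06) and by 0.26 at day 3 (adjusted p = 0.0037, limma), where the groups overlapped. SCD differed by 0.27 at day 0, with overlap (adjusted p = 0.0042), and by 0.96 at day 3, without (adjusted p = 9.1e-08, limma). The IMA mean of SCD was 2.22 times that of SA.

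ELOVL6 and FASN gave a different picture at the 2 stages. ELOVL6 was higher in IMPA than in SPA by 0.70 (adjusted p = 5.7e-06) and lower in IMA than in SA, by -0.26 with overlapping groups (adjusted p = 0.0047, limma). FASN differed by 0.06 at day 0 (95% interval -0.077 to 0.19) and by -0.65 at day 3 (adjusted p = 7.1e-07, limma). ACACA differed by -0.71 at day 3 (adjusted p = 2.0e-08, limma), when SA was 1.77 times IMA. Its day 0 difference of -0.13 was near the threshold (adjusted p = 0.0373, limma) and was lost without any one of IMPA 1, 2, 3 or 5 or SPA 1, 3 or 4, with adjusted p up to 0.0861. LPIN1 was not called at either stage (-0.08 and -0.03).

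**Figure D3:**
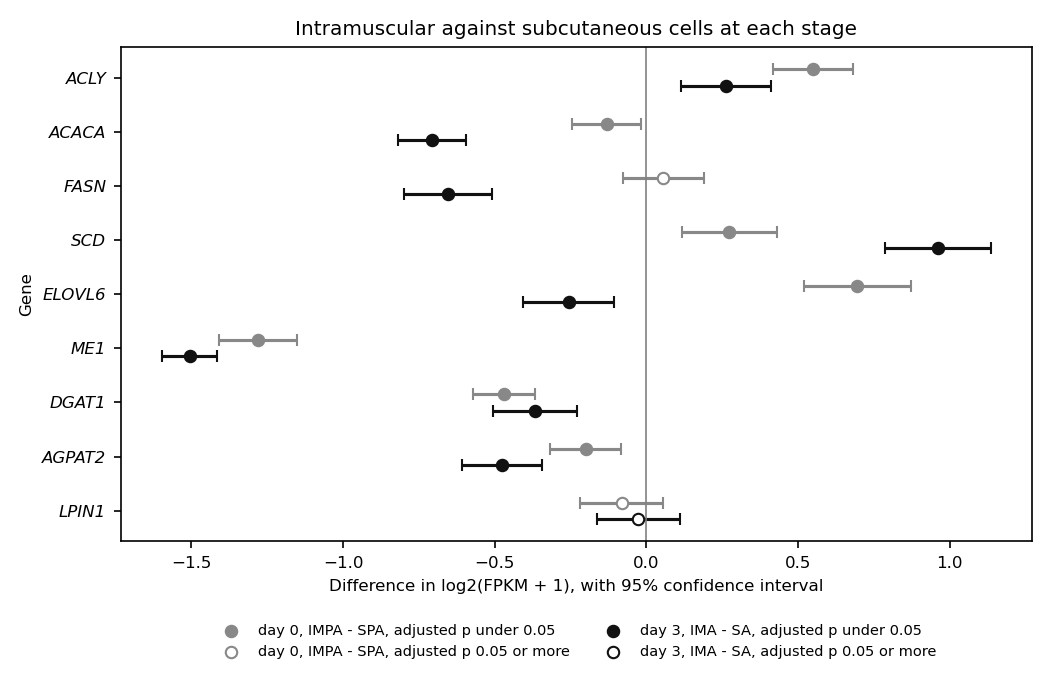
Difference in log2(FPKM + 1) between intramuscular and subcutaneous cells for the 9 tested enzymes (x axis, with 95% confidence intervals from limma), at day 0 (grey) and day 3 (black); filled points have an adjusted p under 0.05. ME1 lay furthest from 0, at -1.28 and -1.51, and SCD at day 3 was the highest point, at 0.96.

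Put in order of level, the groups formed a different sequence for each enzyme. Only ME1 had 4 groups whose ranges were all apart, in the order SPA, SA, IMPA, IMA. For ACLY, IMPA stood above the rest, while the ranges of IMA, SPA and SA ran into each other. For FASN, IMA stood below the other 3 groups, which overlapped. For SCD, SA stood below the others, of which SPA overlapped with IMPA and with IMA. For ACACA, SA alone stood above. DGAT1 and AGPAT2 split by cell type, with the 2 stages of each cell type overlapping. For LPIN1 and DGAT2 each group overlapped with its neighbours in the order, and so it was for ELOVL6, where IMPA was highest and SPA lowest.

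The gene sums of ACLY hide differences between libraries in the shares of its transcripts. Of its 5 annotated transcripts, XM_005693834.3 and XM_005693833.3 held nearly all of the signal. XM_005693834.3 held 83.6 to 90.3% of the ACLY sum in all 10 intramuscular libraries. In SPA 1 to 5 its share was 86.9, 21.4, 88.0, 90.1 and 90.6%, and in SA 1 to 5 it was 25.7, 86.5, 27.1, 24.9 and 28.1%. Each subcutaneous library thus lay either at 86.5 to 90.6% or at 21.4 to 28.1%, and SPA 2 and SA 2 each stood on the other side from the rest of their group.

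The other transcript, XM_005693833.3, mirrored this with 75.3% in SPA 2 and 12.7% in SA 2. The mean share of XM_005693834.3 was 75.4 ± 30.2% in SPA and 38.5 ± 26.9% in SA, a difference of -36.9 points that did not pass (two-sided exact permutation test over 252 divisions, p = 0.159, adjusted p = 0.583 over 14 shares, where the smallest possible p is 0.00794). The ACLY sum in SPA 2, 24.7 FPKM, was close to that of SA 3 to 5, which also had the low share, whereas SA 1 had the low share with a sum of 30.5 FPKM. The split between overlapping transcripts is an estimate. With transcripts tested one by one, the day 0 difference between cell types for XM_005693834.3 alone was 0.92 and was not called (adjusted p = 0.0750, limma).

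**Figure D4:**
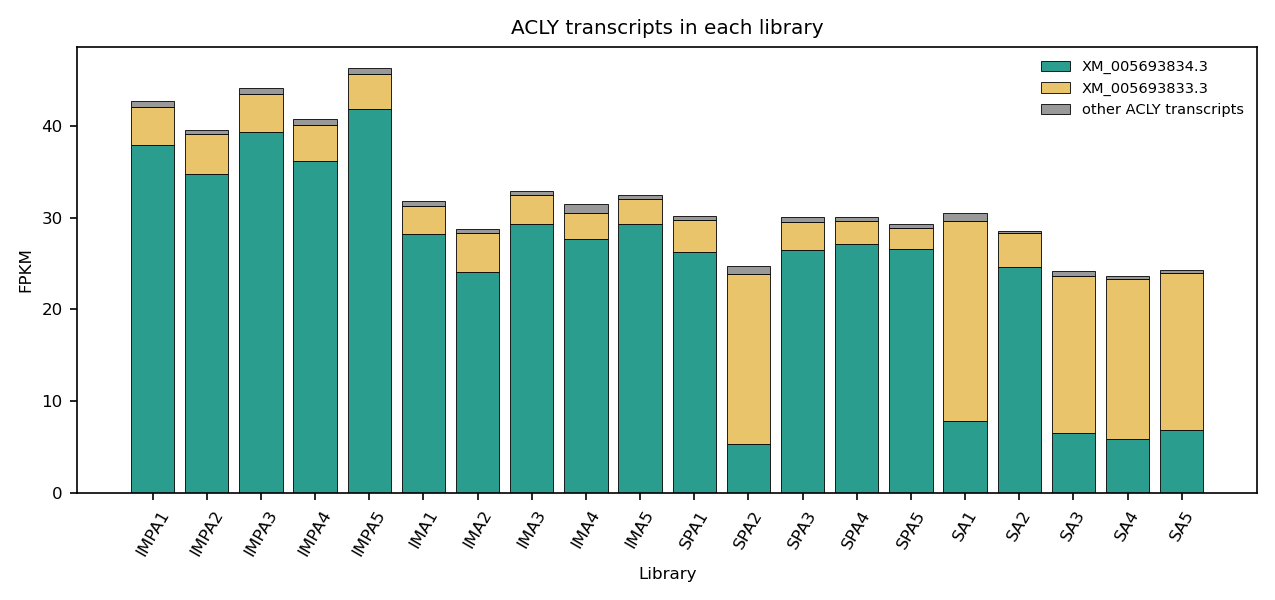
FPKM of the ACLY transcripts XM_005693834.3 (green), XM_005693833.3 (yellow) and the other annotated ACLY transcripts (grey), stacked to the gene sum, in each of the 20 libraries. XM_005693834.3 is the larger part in all libraries except SPA 2, SA 1, SA 3, SA 4 and SA 5.

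Other members with several transcripts varied within groups. The leading ACACA transcript, XM_018064169.1 of 7, held 39.6 to 79.7% of the sum over the 20 libraries, and the leading ELOVL6 transcript, XM_005681307.3 of 3, held 32.1 to 79.7%. XM_018055627.1 held 31.8 to 100% of the LPIN1 sum. None of the 14 shares tested passed (two-sided exact permutation test, lowest adjusted p = 0.333). FASN, SCD, ME1 and AGPAT2 had 1 transcript each, so their values involve no such split.

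The setting of these enzymes was described with 58 further genes of lipid synthesis, of which 57 were in the table and 48 were tested. In intramuscular cells 11 rose, 22 fell and 15 were not called, with a median log2 change of -0.10 beside -0.09 for all genes. In subcutaneous cells 15 rose, 15 fell and 18 were not called, with a median of -0.05 beside -0.01. Both are near the shares of all genes.

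The list drawn up as NADPH supply had 1 direction in intramuscular cells. It counts ME2, a malic enzyme that works mainly with NAD, so it is not a pure list of NADPH sources. All 6 of its genes, among them PGD, IDH1, ME2 and ME3, fell, with a median of -0.34, and in none did the groups overlap, beside 40.2% of all genes lower and 43.5% without overlap. PGD fell from 64.2 to 48.6 FPKM and IDH1 from 53.5 to 40.7 FPKM, the same direction as ME1. In subcutaneous cells 2 rose, ME2 among them, 3 fell and 1 was not called, beside 26.1% and 26% of all genes. ME3 fell there from 16.7 to 10.5 FPKM (log2 change -0.63, adjusted p = 7.2e-07, limma), while IDH1 rose from 64.8 to 77.0 FPKM.

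Among 8 regulators of the pathway, 6 were tested, and 1 rose and 3 fell in intramuscular cells (all genes 19.9% and 40.2%) and 1 rose and 2 fell in subcutaneous cells (26.1% and 26%). INSIG1 encodes the protein that holds SREBP precursors in the endoplasmic reticulum and is itself an SREBP target. It was at 5.94, 5.06, 5.78, 5.15 and 7.94 FPKM in IMPA and at 2.80, 4.01, 4.05, 3.16 and 3.09 FPKM in IMA, and at 5.27, 6.65, 5.72, 6.89 and 7.45 FPKM in SPA and 2.58, 2.81, 2.44, 3.13 and 3.15 FPKM in SA. It was lower in every induced library of both cell types (log2 changes -0.65, adjusted p = 3.8e-04, and -0.95, adjusted p = 2.0e-06, limma).

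SREBF1, which encodes the SREBP factor that drives lipogenic genes, was low and was not called with induction in either cell type. Its mean was 1.40 ± 0.435 FPKM in IMPA and 1.35 ± 0.384 FPKM in IMA (adjusted p = 0.888, limma), and 2.07 ± 0.219 FPKM in SPA and 2.30 ± 0.386 FPKM in SA (adjusted p = 0.307, limma). It was lower in intramuscular than in subcutaneous cells at day 0 (-0.37, adjusted p = 0.0079) and at day 3 (-0.50, adjusted p = 9.8e-04, limma). SCAP, the escort of SREBP precursors, fell in intramuscular cells from 7.28 to 4.61 FPKM (log2 change -0.56) and had a log2 difference of -0.07 in subcutaneous cells (adjusted p = 0.424, limma). MID1IP1, which encodes an activator of acetyl-CoA carboxylase, rose by 0.55 on the log2 scale in each. MLXIPL, encoding the carbohydrate-responsive factor ChREBP, had means of at most 0.106 FPKM and was listed at 0 in all 5 SA libraries, and THRSP had means of at most 0.063 FPKM, so neither was tested.

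Of the 10 tested genes of acyl-CoA and citrate supply, 4 rose and 3 fell in intramuscular cells, beside 19.9% and 40.2% of all genes, and none rose and 5 fell in subcutaneous cells, beside 26.1% and 26%. The acyl-CoA synthetases, which activate fatty acids, did not move together. ACSL1, an acyl-CoA synthetase, was at 4.43, 4.39, 4.87, 4.87 and 4.82 FPKM in IMPA and at 7.21, 8.56, 9.58, 8.88 and 9.27 FPKM in IMA, a log2 change of 0.77. In SPA it was at 6.83, 7.38, 7.35, 7.58 and 7.01 FPKM and in SA at 3.92, 3.91, 3.59, 3.93 and 3.83 FPKM, a log2 change of -0.77. ACSL4, which prefers arachidonate, fell in subcutaneous cells from 80.5 to 44.8 FPKM (-0.83) and rose in intramuscular cells from 37.2 to 45.5 FPKM (0.29, adjusted p = 0.0141, limma). ACSL3 and ACSL5, named after their values were seen, fell in intramuscular cells (-0.43 and -0.56) and were not called in subcutaneous cells (0.05 and 0.01).

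In the elongation and desaturation list of 13 tested genes, 2 rose and 6 fell in intramuscular cells (all genes 19.9% and 40.2%) and 6 rose and 3 fell in subcutaneous cells (26.1% and 26%). ELOVL5, an elongase of polyunsaturated fatty acids, fell from 33.5 to 20.6 FPKM in intramuscular cells (-0.65). The 3-hydroxyacyl-CoA dehydratases went both ways there, with HACD1 up from 21.0 to 32.7 FPKM (0.62) and HACD2 down from 35.9 to 24.5 FPKM (-0.54). HSD17B12, the ketoacyl-CoA reductase of the same cycle, rose in subcutaneous cells from 18.0 to 26.9 FPKM (0.56) and HACD4 from 2.75 to 4.42 FPKM (0.53). ELOVL6 rose in the same libraries.

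Of 13 tested genes of glycerolipid acylation, 4 rose and 4 fell in intramuscular cells (all genes 19.9% and 40.2%) and 6 rose and 2 fell in subcutaneous cells (26.1% and 26%). GPAT3, which adds the first acyl chain to glycerol 3-phosphate, had the largest log2(FPKM + 1) change of the listed genes that were tested. It was at 1.36, 1.23, 0.929, 1.51 and 1.13 FPKM in IMPA and at 4.44, 4.45, 3.44, 3.86 and 4.07 FPKM in IMA, with no overlap (log2 change 1.18, SE 0.080, adjusted p = 2.5e-07, limma). In subcutaneous cells it was higher at the start, at 3.80 ± 0.338 FPKM, and rose to 5.09 ± 0.344 FPKM (0.34, adjusted p = 5.0e-04, limma). The members AGPAT2, LPIN1 and DGAT1, which act after it, were not called in the intramuscular cells. Listed paralogues of AGPAT2 and of LPIN1 were called there in both directions.

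**Figure D5:**
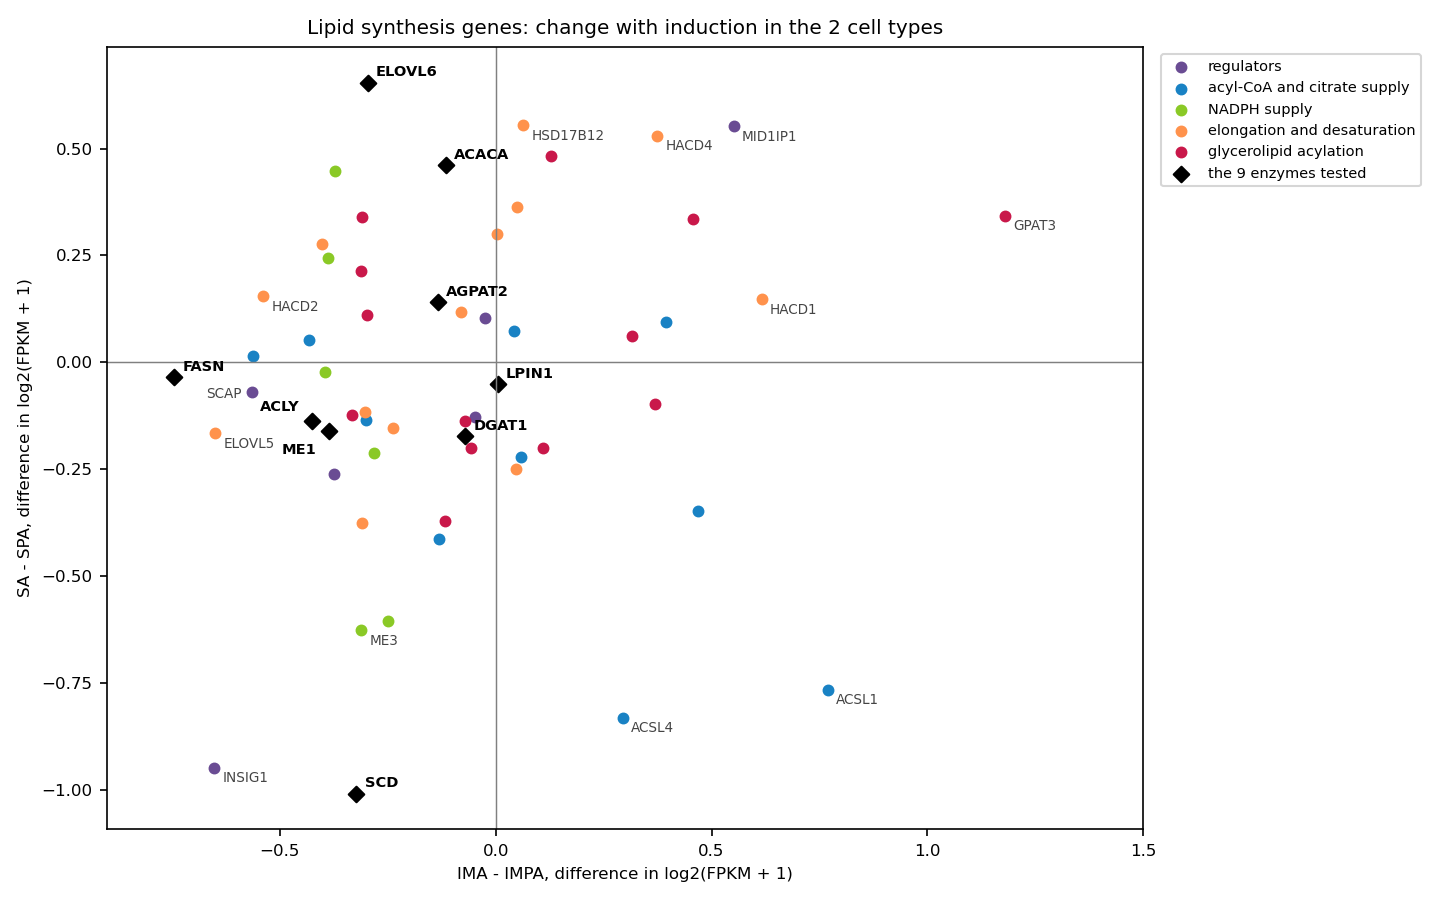
Difference in log2(FPKM + 1) with induction in intramuscular cells (x axis) against that in subcutaneous cells (y axis) for the 9 tested enzymes (black diamonds) and 48 other lipid synthesis genes (coloured by list), with the most changed ones named; the 2 axes share no library. ACSL1 lies at 0.77 and -0.77, SCD and INSIG1 low on both axes, and GPAT3 far right at 1.18.

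For each tested member, the gene with the most similar profile over the 20 libraries was sought among all 11432, by the root mean square distance of centred log2 values. The closest were ORC5 for ACACA (distance 0.090), TRIM28 for FASN (0.092), WDR1 for SCD (0.19), PDGFD for ME1 (0.11), DHX40 for DGAT1 (0.075) and PAPOLG for LPIN1 (0.067). FOLH1B was closest to ELOVL6 (0.11). ACLY and AGPAT2 were closest to LOC102173345 (0.095) and LOC102178535 (0.082). None of the 9 was another member or a listed pathway gene. The values of LPIN1 themselves were spread by 0.087 about their mean, against 0.72 for ME1.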

How the data were processed

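RNA from 20 libraries of goat cells (IMPA, IMA, SPA and SA, 5 each) was sequenced by the authors. The authors deposited 1 FPKM value for each transcript and library, for which the study names StringTie, Ballgown and Cuffdiff without saying which gave the tables, after alignment to goat assembly ARS1 with HISAT2 2.0.4. The submitters' processing notes also name StringTie 1.3.1. Nothing was realigned. FPKM depends on the mapped total and on how overlapping transcripts are split, and counts are not analysed here, so depth and counting error are unknown.

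Transcripts were summed per official symbol. Genes whose mean over the 20 libraries reached 1 FPKM were tested on log2(FPKM + 1), a pseudocount of 1, with limma 3.58.1 under R 4.3.3 (moderated variances with a trend) in fits of 10 libraries, and over 20 libraries for the interaction of stage and cell type. P values were adjusted over all 11432 genes by the Benjamini-Hochberg method, with a threshold of 0.05. Transcripts with at least 10% of a gene's sum had their share compared by two-sided exact permutation. Python 3.11.15, numpy 2.4.6, scipy 1.17.1, pandas 2.3.3 and matplotlib 3.10.9 were used for the rest. The fit was also run on simulated data with independent errors and few changed genes, unlike the data here. No result above rests on that run.

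The members, lists and tests were chosen with earlier results of these data known, so that list counts are a description. Named are all members, SREBF1, MLXIPL, INSIG1 and THRSP, and in each stage comparison the 8 listed genes with the largest change among those called without overlap. PGD, IDH1, ME2, ACSL3, ACSL5, CEBPA, CIDEC, PNPLA2, PPARG, LPL, CFD, LIPE, DLK1 and values of a named gene in the other cell type were added after their values were seen. A gene that this rule names is not reported here. The lncRNA tables served only the library sums. Libraries sharing a replicate number were not treated as pairs. FABP4, MYH3 and MOGAT2 are not analysed here. Alternatives were lower minimum means, a pseudocount of 0.1, other scalings and models, transcripts tested one by one, a replicate block and leaving out libraries. With transcripts tested one by one, the value given for a gene is that of its transcript of highest mean alone. Scaling to the sum of the mRNA table was chosen after seeing the data.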

Additional observations from a re-analysis of the deposited data

Results flagged for a closer look

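Among 68 sets of 5 values (member levels and transcript shares within a group), 7 held a library far from the others by Dixon's criterion, and chance gives this in about 1 of 20 sets. For levels these were ACLY in SPA 2 at 24.7 FPKM, ACACA in IMPA 4 at 5.88 FPKM and ME1 in SPA 2 at 35.7 FPKM. For shares of the gene sum they were ACLY XM_005693834.3 in SPA 2 at 21.4% and in SA 2 at 86.5%, ACACA XM_018064174.1 in IMA 4 at 36.3%, and DGAT2 XM_018058853.1 in IMA 1 at 94.8%, where the other IMA libraries were all at 100%. SPA 2 appears for ACLY both as sum and as share, and for ME1.

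The change with induction differed between the cell types for 7 members by the interaction test in limma. On the log2 scale the intramuscular minus the subcutaneous change was -0.29 for ACLY, -0.58 for ACACA, -0.71 for FASN, 0.69 for SCD, -0.95 for ELOVL6, -0.23 for ME1 and -0.28 for AGPAT2.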

How the results depend on the processing

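In IMA against IMPA the calls of ACLY, FASN, SCD, ELOVL6 and ME1, and in SA against SPA those of SCD, ELOVL6 and ME1, were kept under every alternative run. ACACA between SA and SPA was kept in all but the fit with transcripts tested one by one (0.44 against 0.46, adjusted p = 0.0773, limma). There each member stands by its leading transcript alone, and 3 members were called in place of 6. The ACACA interaction (-0.54 against -0.58, adjusted p = 0.0787) and ELOVL6 in IMA against SA (-0.21 against -0.26, adjusted p = 0.0587) were lost in that fit as well, while under quantile normalization LPIN1 was called in both comparisons of cell types (-0.26, adjusted p = 0.0016, and -0.17, adjusted p = 0.0186, limma). Same-numbered libraries deviated together with correlations of 0.042 to 0.12 (median 0.057) between IMA and IMPA. Other-numbered ones had -0.17 to 0.12 (median -0.019). Between SA and SPA the correlations were -0.24 to 0.12 (median -0.0037) for same numbers and -0.31 to 0.35 (median 0.0049) for others. In these comparisons 3 and 1 of 5 libraries were closest to their own number. Whether a shared number stands for the same goat stays unknown. With the replicate block 5 members were called between IMA and IMPA, 5 in SA against SPA (AGPAT2 was lost, adjusted p = 0.0681, limma) and 7 in the interaction, with 6826, 5602 and 6304 genes called. By the study's tables SPA 1 and SA 5 lost fewer reads in filtering than the other subcutaneous libraries. So did all intramuscular libraries. Filtering thus went largely with cell type, and its part in the comparisons of cell types was not tested. SPA 1 and SA 5 are 1 library per stage, so no value within them exists. Without both, 5 members were called between SA and SPA, again without AGPAT2 (adjusted p = 0.141, limma).

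Differences near 0 changed sign. The LPIN1 difference between IMA and IMPA was -0.0035 in the ordinary linear model and -0.018 with scaling to the mRNA table sum, and -0.022 to 0.039 when 1 library was left out. SREBF1 ranged from -0.10 to 0.066 there. FASN in SA against SPA ranged from -0.092 (scaling to the mRNA table sum) to 0.0075 (without SA 3), and was -0.083 without SPA 1 and SA 5, and FASN between IMPA and SPA was -0.038 under quantile normalization. LPIN1 between IMA and SA was 0.017 with upper-quartile scaling and -0.052 to 0.0089 with 1 library left out (positive without IMA 3 or SA 1). For its leading transcript alone it was 0.22. The interaction of the leading ACLY transcript alone was 0.62 (adjusted p = 0.428, limma). With 1 library left out, the share difference of ACACA XM_018064169.1 ranged from -4.05 to 4.78 points between IMA and IMPA and -3.77 to 5.40 between SA and SPA, that of ELOVL6 XM_005681307.3 from -6.91 to 0.062 and -8.76 to 3.16, and that of LPIN1 XM_018055627.1 between SA and SPA from -14.4 to 2.65. The cause was not tested. The share of calls that were higher moved from 50.1 to 36.5% between SA and SPA with scaling to the mRNA table sum, and from 37.5 to 48.0% in the interaction under quantile normalization. Without counts, precision at low FPKM, as for DGAT2, is unknown.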
